A study of Mus musculus with 10 samples.

Results

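Glycolysis and glycogen metabolism genes of skeletal muscle were examined for binding of the glucocorticoid receptor (GR) and of lysine-specific demethylase 1 (LSD1), and for the histone marks H3K9me1 and H3K9me2. The 36 genes were named individually as enzymes, regulatory subunits and targeting proteins of these pathways, and all 36 were found among 21000 mouse genes with a curated protein-coding transcript (NM_ genes of RefSeq, build GRCm38). Of them, 18 encode glycolytic enzymes and lactate dehydrogenases, 14 act on glycogen, and 4 set the level of fructose bisphosphates. Of the 36, 14 are isoforms known to prevail in muscle, and 8 of these have another isoform of the same enzyme among the 36. Those other isoforms are 11 in number, and the remaining genes were put in neither list.

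The data are peak lists of chromatin immunoprecipitation sequencing (ChIP-seq), which maps where a protein or mark sits on the genome. Muscle came from C57BL/6J mice given an age of 10 weeks in the labels, either fed or starved for 24 h, with no mutant allele or drug in either group. Each antibody had 1 library per condition, and 1 input library per condition served as control, which makes 10 libraries and 8 peak lists. No difference between conditions can therefore be set against a spread between replicates, no test was made, and what follows describes single libraries. The study's own text gives another age. It states a general minimum of mice and repeats for its ChIP-seq experiments, but not how many animals or repeats each deposited library holds. Skeletal muscle holds fibres, vessels and connective tissue cells, and the lists hold no expression values, so the labelled tissue was not checked against marker genes. In bulk chromatin, fewer bound cells and weaker binding per cell cannot be told apart.

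Muscle breaks glycogen and glucose down to lactate or pyruvate to make ATP. Glycogen phosphorylase releases glucose units, phosphorylase kinase switches it on, and glycogen synthase with the branching enzyme rebuilds the store. GR is a ligand-activated transcription factor that glucocorticoids bring to the nucleus, and it binds a palindrome of a pair of half-sites called the glucocorticoid response element (GRE). LSD1 removes methyl groups from histone H3. Glucocorticoids are released during fasting and shift fuel use in muscle. MEF2 proteins are transcription factors of muscle genes, and NRF1 is a factor of housekeeping and mitochondrial promoters.

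A peak was placed by its midpoint. A promoter peak lay between 1000 bp upstream and 100 bp downstream of any transcription start site (TSS) of the gene. A gene body peak lay elsewhere between the outermost ends of the gene, and nearby peaks lay within 30 kb of a TSS. Fold enrichment is the peak caller's ratio of signal to the background expected from input, and the q-value is its p-value adjusted over the genome. List length varied from 6624 peaks in H3K9me2 starved to 171402 in H3K9me2 fed. The GR lists held 14108 (fed) and 37783 (starved) peaks and the LSD1 lists 16616 and 66332, so each count of genes is given beside the share of all 21000 genes called in the same list. The LSD1 starved list holds far more peaks than the study's text gives for it, so it may be another version of the calls, and every starved LSD1 count below rests on it. Both GR libraries and both input libraries carried one library code and both LSD1 libraries the other. Between GR and LSD1, antibody and code therefore cannot be told apart. For H3K9me1 and H3K9me2 the code changed with the condition, so condition and code cannot be told apart there.

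Sequences in some of the peaks are shown first, because the results return to them. The first set has a motif in capitals with 10 bases on each side, on the plus strand of GRCm38, with the coordinates of the motif. The Pgam2 match lay in peaks of all 4 GR and LSD1 lists, the Ppp1r3a match lay in a promoter peak, the Gys1 match lay in an intronic peak that had one of the highest GR folds, and the last pair holds the only GRE-like match and the only NRF1 match at a promoter of the 36 genes.
Pgam2 MEF2 match (chr11:5803867-5803876): ggagctgaacTTAAAAATAGtctcacaaaa
Ppp1r3a MEF2 match (chr6:14755365-14755374): gaagtcagctCTATAAATAGgtccaaatgg
Gys1 intron MEF2 match (chr7:45444323-45444332): cattctaaccCTAATAATAGctgacatttc
Pfkfb4 GRE-like match (chr9:108991353-108991367): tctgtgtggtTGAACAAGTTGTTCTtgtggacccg
Pgam1 NRF1 match (chr19:41911871-41911880): cttgcctgagGCGCATGCGCacacggggcg

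The second set shows longer stretches on the strand of the gene, from RefSeq GRCm38.p6, with exact GRE half-sites (AGAACA on either strand) and MEF2 matches in capitals. The Pfkfb3 and Pgk1 stretches are the bases shared by the fed and the starved GR peak at the sites where starved GR was most above and most below fed GR. The Ppp1r3c and Pkm stretches are the 250 bases before a TSS of promoters that had peaks in all 4 GR and LSD1 lists. Of these 4 stretches, the Pgk1 stretch alone holds capitals, 2 overlapping half-sites. The word intron in a label refers to the midpoint of the peak, and exon borders within a stretch are not marked. The label therefore does not place the Pgk1 half-sites in the intron.
Pfkfb3 intron, minus strand (chr2:11530161-11530366): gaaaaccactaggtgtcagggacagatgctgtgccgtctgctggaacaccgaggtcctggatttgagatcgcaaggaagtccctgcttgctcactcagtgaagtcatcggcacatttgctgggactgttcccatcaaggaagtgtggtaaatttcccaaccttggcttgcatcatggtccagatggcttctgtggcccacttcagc
Pgk1 intron, plus strand (chrX:106194484-106194677): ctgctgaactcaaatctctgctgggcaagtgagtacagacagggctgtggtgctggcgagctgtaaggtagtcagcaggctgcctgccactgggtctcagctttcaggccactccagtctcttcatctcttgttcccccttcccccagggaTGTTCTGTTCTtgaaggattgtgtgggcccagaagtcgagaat
Ppp1r3c upstream, minus strand (chr19:36736605-36736854): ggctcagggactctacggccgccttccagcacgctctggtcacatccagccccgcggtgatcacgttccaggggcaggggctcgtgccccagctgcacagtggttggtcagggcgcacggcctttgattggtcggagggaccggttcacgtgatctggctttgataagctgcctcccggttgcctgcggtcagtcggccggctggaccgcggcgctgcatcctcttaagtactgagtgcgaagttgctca
Pkm upstream, plus strand (chr9:59656326-59656575): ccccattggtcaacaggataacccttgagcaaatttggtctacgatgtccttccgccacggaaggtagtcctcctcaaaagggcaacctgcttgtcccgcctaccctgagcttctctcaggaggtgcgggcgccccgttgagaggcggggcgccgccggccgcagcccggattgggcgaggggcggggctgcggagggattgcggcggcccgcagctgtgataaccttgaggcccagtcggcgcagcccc

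GR sat at many of these promoters in both conditions. In fed muscle 14 of 36 genes had a GR promoter peak (38.9%, exact Clopper-Pearson 95% interval 23.1 to 56.5%), against 15.1% of all genes. In starved muscle 19 had one (52.8%, interval 35.5 to 69.6%), against 26% of all genes. These intervals cover counting error only and take the genes as independent. Of the 36 genes, 10 had a GR promoter peak in both conditions (11% of all genes), 4 in fed muscle alone (4.13%), 9 in starved muscle alone (15%) and 13 in neither (69.9%). When any base of a peak could lie in the window, the fed-only genes were 3 (3.27% of all genes), Phkg1, Ppp1r3a and Prkag3, so the fed-only calls of Pfkm and Gys1 rest on the midpoint. The order of the conditions depended on the longer starved list. With peaks of a q-value of 0.01 or less, 13 genes had a GR promoter peak in fed and 12 in starved muscle (9.03% and 12.7% of all genes). With lists of equal length the counts were 14 and 12 (15.1% and 13.7%).

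LSD1 differed in the other direction at these promoters. It had a promoter peak at 19 of 36 genes in fed muscle (52.8%, interval 35.5 to 69.6%), against 25.4% of all genes, and at 11 in starved muscle (30.6%, interval 16.3 to 48.1%), against 18%. A promoter peak was called in both conditions at 9 genes (10.8% of all genes), in fed muscle alone at 10 (14.6%), in starved muscle alone at 2 (7.17%) and in neither at 15 (67.4%). At Gys1 and Ppp1r3a, which had one in both conditions, the fed and the starved LSD1 peak did not overlap. At a q-value of 0.01 or less the counts were 10 genes in fed and 1 in starved muscle (11.8% and 3.39% of all genes). In all, 28 of the 36 genes had a promoter peak in at least one of the 4 GR and LSD1 lists, against 41.7% of all genes. Those without any were Aldoc, Eno2, Ldhb, Pygb, Gbe1, Phka1, Gyg and Pfkfb1, which are 3 glycolytic genes, 4 glycogen genes and a gene of fructose bisphosphate control.

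**Figure D1:**
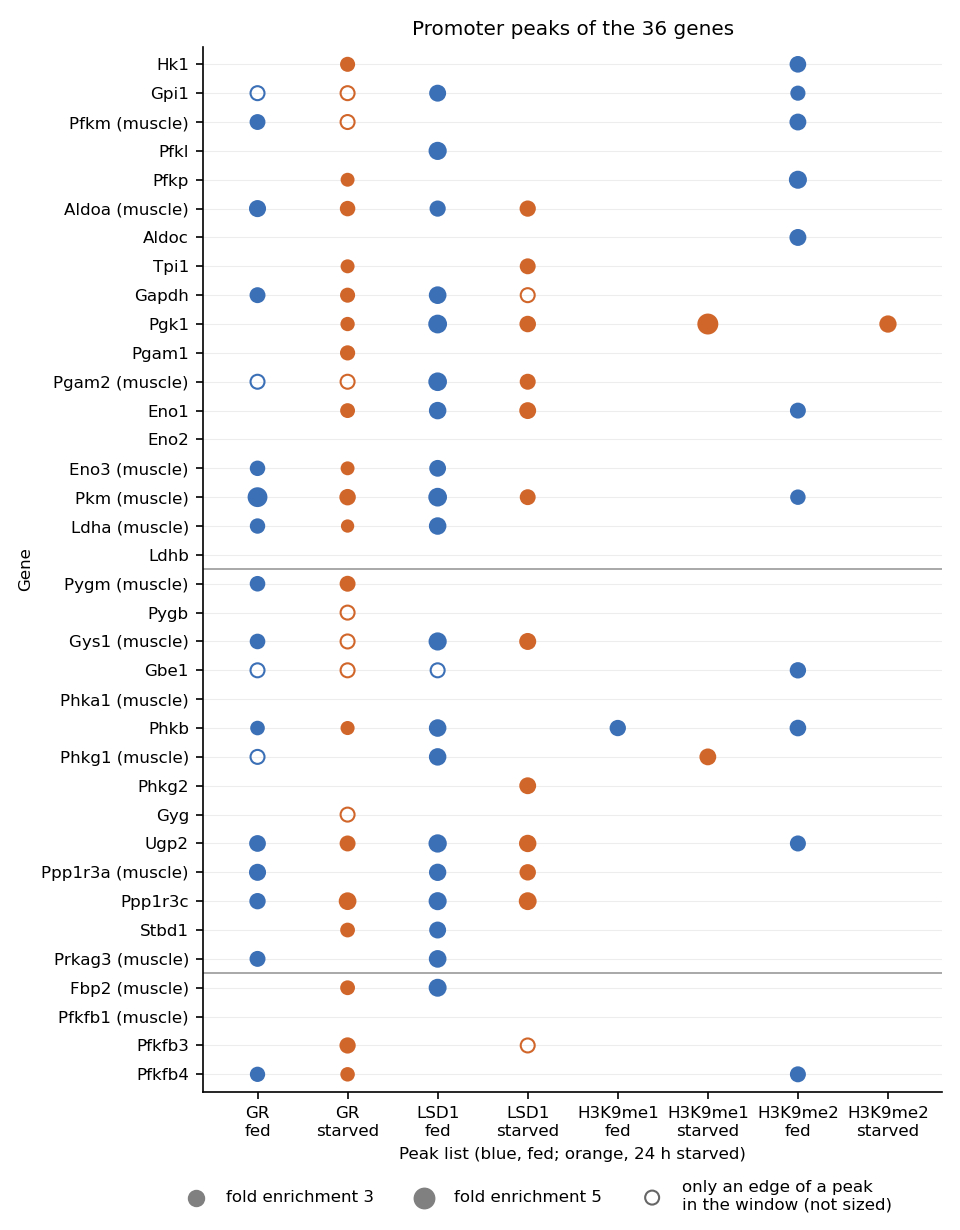
Promoter peaks of the 36 genes (rows, in the order glycolysis, glycogen and fructose bisphosphate control, divided by lines) in the 8 peak lists (columns), with the dot area in proportion to the fold enrichment of the strongest promoter peak. Open circles mark promoters reached only by an edge of a peak whose midpoint lay outside. Filled dots stand in the GR and LSD1 columns at 28 genes, and in the starved H3K9me2 column at Pgk1 only.

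The counts for muscle isoforms and for other isoforms differed most in fed muscle. Both lists were chosen with earlier results of these data known, so the difference is described here and was not tested. GR had a fed promoter peak at 9 of the 14 muscle isoforms and at 1 of the 11 other isoforms, beside 15.1% of all genes. The 9 were Pfkm, Aldoa, Eno3, Pkm, Ldha, Pygm, Gys1, Ppp1r3a and Prkag3, and the single other isoform was Pfkfb4. In starved muscle the counts were 6 of 14 and 5 of 11, beside 26% of all genes. LSD1 had a fed promoter peak at 10 of 14 muscle isoforms and 2 of 11 other isoforms (25.4% of all genes), and a starved one at 5 of 14 and 2 of 11 (18%). The 4 genes with a GR promoter peak in fed muscle alone (Pfkm, Gys1, Ppp1r3a, Prkag3) were muscle isoforms, whereas those with one in starved muscle alone held 1 muscle isoform (Fbp2) and 4 other isoforms (Pfkp, Pgam1, Eno1 and Pfkfb3). For fed GR the counts were the same, 9 and 1, at a q-value of 0.01 or less (9.03% of all genes). They were 11 and 1 when any base of a peak could lie in the promoter (17.9%). For starved GR any base gave 9 and 6 in place of 6 and 5 (32.2%), and a promoter to 1 kb downstream gave 10 and 6 (34.7%). The starved count of muscle isoforms thus depends on how a peak is placed. For fed LSD1 the stricter q-value left 5 and 1 (11.8%). A fold of at least 4 left 1 and 0 for fed GR (0.919%) and 4 and 1 for fed LSD1 (12.6%). With 1 TSS per gene, fed GR had 7 and 1 (13.7%) and fed LSD1 8 and 1 (23.3%). Of the 14 muscle isoforms, 6 (Pkm, Gys1, Phka1, Ppp1r3a, Prkag3 and Fbp2) have no other form of the same enzyme in the list of 11. Among the 8 that do, 5 had a GR promoter peak in fed and 4 in starved muscle, and 5 and 2 had an LSD1 promoter peak. Ppp1r3c, which was in neither list, belongs to the same family of targeting subunits as Ppp1r3a and had a fed GR promoter peak. With it among the other isoforms, 2 of 12 had one in fed muscle.

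**Figure D2:**
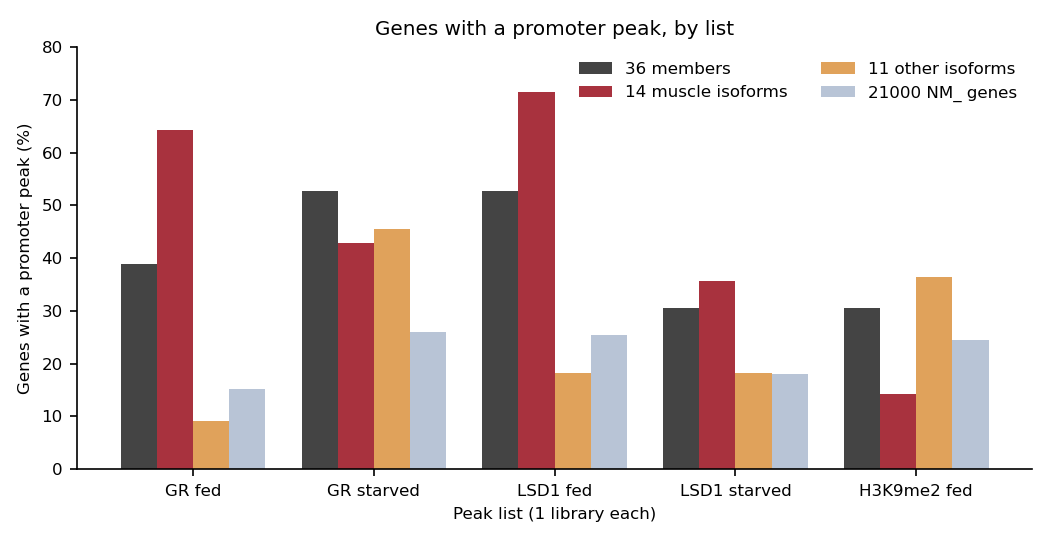
Share of genes with a promoter peak (percent, bars from 0) in 5 peak lists for the 36 genes, the 14 muscle isoforms, the 11 other isoforms and all 21000 genes. Each peak list is 1 library, so bars carry no error, and the isoform lists were chosen with earlier results of these data known. In GR fed and LSD1 fed the muscle isoforms stood at 64.3% and 71.4% and the other isoforms at 9.09% and 18.2%.

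Upper glycolysis carried few strong promoter peaks. Hk1, the hexokinase that traps glucose in the cell, had a GR promoter peak in starved muscle alone (fold 2.91). Gpi1, which converts glucose 6-phosphate to fructose 6-phosphate, had an LSD1 promoter peak in fed muscle alone (fold 3.68). GR peaks of fold 3.15 in fed and 2.94 in starved muscle reached into the Gpi1 promoter with their midpoints outside the window. The phosphofructokinase genes, which encode the committed step, shared no pattern. Pfkm, the muscle form, had a fed GR peak (fold 3.23), and the starved GR peak over the same place (fold 3.01) was longer and had its midpoint 0.156 kb downstream of the TSS, outside the window. Pfkl had an LSD1 promoter peak in fed muscle (fold 4.23) and Pfkp a GR promoter peak in starved muscle (fold 2.48). Aldoa, the muscle aldolase, had promoter peaks in all 4 lists. Its strongest fed GR peak had a fold of 3.74 and its strongest starved one 3.07, and LSD1 had 3.35 and 3.39. Tpi1, triose phosphate isomerase, had promoter peaks in starved muscle alone, with a fold of 2.51 for GR and 3.25 for LSD1.

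Lower glycolysis held the strongest GR promoter peak of the 36 genes. Pkm, whose product is pyruvate kinase of muscle, had a fed GR peak of fold 5.04 (q-value 1.05e-12) at chr9:59656005-59656421, 0.363 kb upstream of the TSS. In starved muscle the GR peak there had a fold of 3.47 and covered 2277 bp. LSD1 had a fold of 4.48 in fed and 3.25 in starved muscle at the same promoter, the one printed above. Pkm was the only member with a promoter GR peak of fold 4 or more in fed muscle, and Ppp1r3c, a glycogen gene, the only one in starved muscle.

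Gapdh, which encodes glyceraldehyde 3-phosphate dehydrogenase, had a GR promoter peak of fold 3.25 in fed and 2.90 in starved muscle, and an LSD1 promoter peak of fold 3.99 in fed muscle. A starved LSD1 peak (fold 4.28) reached the Gapdh promoter by an edge alone. Pgk1, phosphoglycerate kinase, had an LSD1 promoter peak in fed (fold 4.52) and starved muscle (fold 3.50) and a GR promoter peak in starved muscle alone (fold 2.62). Pgam1 and Pgam2 encode the phosphoglycerate mutases of most tissues and of muscle. Pgam1 had a starved GR peak (fold 2.95) over the TSS where the NRF1 match lay. Pgam2 had LSD1 promoter peaks in fed (fold 4.45) and starved muscle (highest fold 3.28). Its GR peaks, with a fold of 3.23 in fed and 3.10 in starved muscle, reached into the promoter with their midpoints 0.147 kb and 0.288 kb downstream of the TSS, so they were not counted there. Both LSD1 and GR peaks covered the MEF2 match printed above, 0.075 kb upstream of the TSS.

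The enolases differed by form. Eno3, the muscle form, had GR promoter peaks in fed (fold 3.06) and starved muscle (fold 2.48) and an LSD1 peak in fed muscle (fold 3.61). Eno1, the form of most tissues, had a GR promoter peak in starved muscle alone (fold 2.83) and LSD1 peaks in fed (fold 3.91) and starved muscle (fold 3.64). Eno2, the neuronal form, had none. Ldha, the muscle lactate dehydrogenase, had a fed GR peak of fold 3.04 and a starved one of fold 2.27 that lay at different TSSs of the gene, and an LSD1 peak of fold 3.93 in fed muscle. Ldhb, the heart form, had no GR or LSD1 promoter peak and no GR peak within 30 kb in either condition.

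Among the glycogen genes, 7 of 14 had a GR promoter peak in fed (15.1% of all genes) and 5 in starved muscle (26%), and 8 (25.4%) and 5 (18%) had an LSD1 promoter peak. For starved GR the share of 35.7% was near the background, with an interval of 12.8 to 64.9%. Ppp1r3c encodes a subunit that brings protein phosphatase 1 to glycogen. It had a GR promoter fold of 3.42 in fed and 4.02 in starved muscle (q-values 4.47e-05 and 1.14e-09) and an LSD1 fold of 4.17 and 4.08 (q-values 0.00489 and 0.000448). It was the one member whose LSD1 promoter peak in starved muscle had a q-value of 0.01 or less. Ugp2, which makes UDP-glucose, the donor for glycogen, also had promoter peaks in all 4 lists. Its fed GR peak had a fold of 3.59 and its starved one 3.26, and its strongest LSD1 peaks had folds of 4.29 and 3.87.

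Gys1, muscle glycogen synthase, had a GR promoter peak in fed muscle (fold 3.12) and LSD1 peaks in fed (fold 4.23) and starved muscle (fold 3.70). The starved GR peak at Gys1 (fold 3.35) covered most of the same bases, but it was 1825 bp long and its midpoint lay 0.435 kb downstream. The promoter is shared with Ruvbl2, so these peaks cannot be assigned to one of the genes. Pygm, muscle glycogen phosphorylase, had GR promoter peaks in fed (fold 3.11) and starved muscle (fold 3.25) and no LSD1 promoter peak. Ppp1r3a, the muscle-specific targeting subunit of protein phosphatase 1, had a GR peak in fed muscle alone (fold 3.73), no GR peak within 30 kb in starved muscle, and LSD1 peaks in fed (fold 3.84) and starved muscle (fold 3.45). Prkag3 is a subunit of AMP-activated protein kinase that prevails in fast muscle. It had fed promoter peaks of GR (fold 3.26) and LSD1 (fold 3.99) and none in starved muscle.

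The phosphorylase kinase genes carried weaker or short peaks. Phkb was bound by GR in both conditions (fold 2.73 and 2.54) and an LSD1 peak in fed muscle (fold 3.95), at a promoter shared with Itfg1. Phkg1, the muscle catalytic subunit, had a fed LSD1 peak of 83 bp (fold 3.92), and Phkg2 had a starved LSD1 peak of 60 bp (fold 3.64). Stbd1, a glycogen-binding protein, had a starved GR peak (fold 2.80) and a fed LSD1 peak (fold 3.66). Pygb, Gbe1, Phka1 and Gyg had no promoter peak of GR or LSD1 by midpoint. An edge of a GR peak reached into the promoters of Pygb and Gyg in starved muscle and of Gbe1 in both conditions. An edge of a fed LSD1 peak (fold 5.32) also reached into that of Gbe1.

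Of the 4 genes of fructose bisphosphate control, 1 had a GR promoter peak in fed (15.1% of all genes) and 3 in starved muscle (26%). Fbp2 is muscle fructose bisphosphatase, and the Pfkfb genes encode the bifunctional enzymes that set fructose 2,6-bisphosphate, the activator of phosphofructokinase. Fbp2 had a starved GR peak (fold 2.81) and a fed LSD1 peak (fold 4.13). Pfkfb3 had a pair of GR promoter peaks in starved muscle alone, one at each of its TSSs, with folds of 3.38 (q-value 1e-07) and 2.78. Pfkfb4 carried a GR peak of fold 3.00 in the fed and 2.69 in the starved list, and the fed one was 2404 bp long. Pfkfb1 had no GR or LSD1 promoter peak.

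The study mapped GR and LSD1 to learn where each lies on the genome, and their promoter peaks were set side by side. In fed muscle 11 of the 36 genes had promoter peaks of both (10.6% of all genes), and the peaks overlapped at 8 of them (9.51%). They were Aldoa, Gapdh, Eno3, Pkm, Ldha, Gys1, Phkb, Ugp2, Ppp1r3a, Ppp1r3c and Prkag3, of which 7 are muscle isoforms and none is another isoform. In starved muscle 7 genes had both (10.4%), and the peaks overlapped at all 7 (8.8%). These were Aldoa, Tpi1, Pgk1, Eno1, Pkm, Ugp2 and Ppp1r3c. Of all genes, 4.69% had a promoter peak in all 4 lists, and of the 36 genes 4 did, Aldoa, Pkm, Ugp2 and Ppp1r3c. At a q-value of 0.01 or less, 7 genes in fed (3.5% of all genes) and 1 in starved muscle (1.38%) had promoter peaks of both.

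Beyond the promoter these genes had many GR and LSD1 peaks. In the gene body, GR had a peak at 22 genes in fed (17.5% of all genes) and 25 in starved muscle (37.4%), and LSD1 at 22 (19.3%) and 19 (45.2%). Within 30 kb of a TSS, GR had a peak at 32 genes in fed (42.2%) and 32 in starved muscle (65.2%), and LSD1 at 30 (51.5%) and 35 (81.8%). The mean number of GR peaks within 30 kb was 2.67 per gene in fed and 4.72 in starved muscle, against 0.82 and 2.23 over all genes. For LSD1 the means were 3.11 and 3.19, against 1.13 and 2.23. At least 3 nearby peaks were found at 17 genes for GR fed (9.7% of all genes), 23 for LSD1 fed (15%), 23 for GR starved (31.9%) and 22 for LSD1 starved (36.4%). The muscle isoforms had a mean of 3.86 GR peaks in fed muscle and the other isoforms 1.45. In starved muscle these means were 5.07 and 4.73.

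A GR peak lay within 30 kb in both conditions at 29 genes (39.8% of all genes), and an LSD1 peak at 30 (47.4%). The difference in peak number between conditions was uneven among the genes. GR had more nearby peaks in starved than in fed muscle at 24 genes (54.7% of all genes) and fewer at 8 (4.26%). Among genes with at least 1 fed GR peak nearby, 8 of 32 had fewer in starved muscle, against 10.1% of all such genes, and with peaks within 1 kb merged the count was again 8 of 32, against 10%. The 8 were Pfkl, Pkm, Ldha, Phkg1, Ugp2, Ppp1r3a, Fbp2 and Pfkfb1. Pkm and Phkg1 each had 5 GR peaks in the fed and 3 in the starved list, Ldha had 4 and 2, and Ppp1r3a and Pfkfb1 had 2 and 0. At the other end, Gys1 had 4 and 13, Pfkfb3 had 5 and 14, and Gapdh had 4 and 11. LSD1 had more nearby peaks in starved muscle at 14 genes (61.2%) and fewer at 14 (13%). Aldoa had 10 LSD1 peaks in fed and 4 in starved muscle, and Pygm had 5 and 1. Among genes with at least 1 fed LSD1 peak, 14 of 30 had fewer (25.2% of all such genes), and with merged peaks 10 of 30 (22%). Among genes with at least 3 fed LSD1 peaks the count was 13 of 23 (56.5%, interval 34.5 to 76.8%), near the 46% of all such genes, and for GR it was 4 of 17 (23.5%, interval 6.81 to 49.9%), against 10%.

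**Figure D3:**
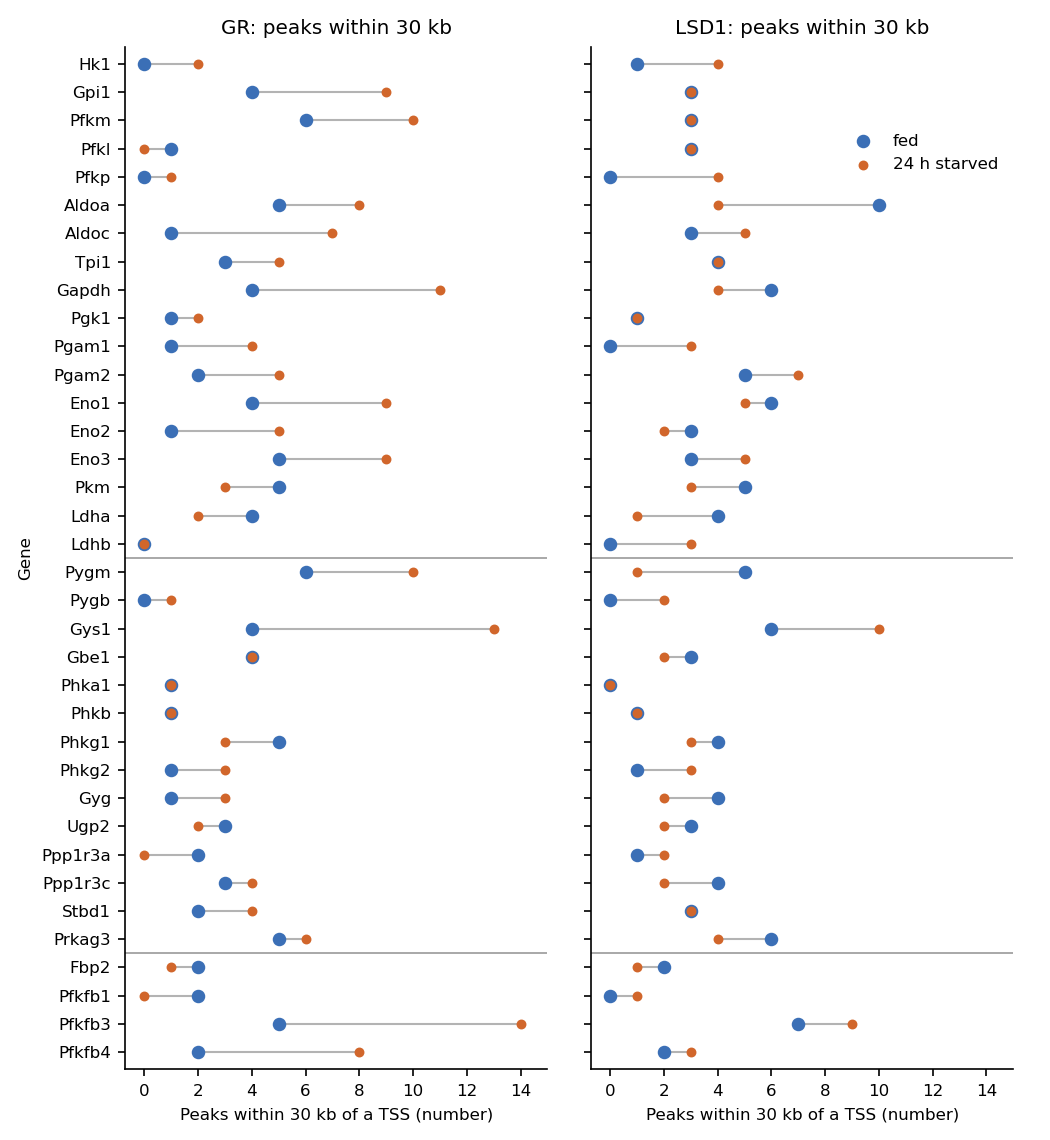
Number of GR peaks (left) and LSD1 peaks (right) with a midpoint within 30 kb of a TSS of each gene, in fed (blue) and 24 h starved (orange) muscle, 1 library each. Orange lies right of blue for GR at 24 genes and left of it at 8, and for LSD1 at 14 genes each way.

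The 5 strongest fed GR peaks near these genes were distal, whereas the 5 strongest of each other list included a peak within 1 kb of a TSS. In fed GR the highest fold was 9.13 (q-value 4.07e-41) at chr19:36749034-36749817, 12.8 kb upstream of Ppp1r3c, in sequence between genes. It was followed by a fold of 8.38 at chr1:74726150-74726476 in an intron of Cyp27a1, 22.6 kb downstream of the Prkag3 TSS. Gys1 had a fold of 7.64 in an intron (chr7:45444028-45444440), 9.39 kb downstream of its TSS, over the MEF2 match printed above. Gbe1 had 6.92 in an intron, 6.93 kb downstream, and Pfkfb4 had 6.85 in an intron, 17.9 kb downstream. All 5 of these fed peaks were overlapped by a fed LSD1 peak and by a starved GR peak, and none by a starved LSD1 peak.

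In starved GR the highest fold was 10.8 (q-value 1.63e-65) at chr2:11530022-11530870 in an intron of Pfkfb3, 23.5 kb downstream of its upstream TSS. Neither LSD1 list had a peak there. Next came the site upstream of Ppp1r3c (fold 7.37), a further Pfkfb3 intron site (fold 6.24, chr2:11525982-11526967) that all 4 lists shared, the Pfkfb4 intron site (fold 5.30) and a Pygm intron site 0.677 kb downstream of the TSS (fold 5.17). At that Pygm site fed GR had a higher fold, 6.51, which fell below the 5 highest fed folds. The fed and starved GR lists thus do not differ in having a strong peak close to that TSS. The median fold of peaks within 30 kb of these genes was 3.99 for LSD1 and 3.36 for GR in fed muscle. In starved muscle these medians were 3.44 and 2.79. Among the LSD1 peaks of highest fold, however, the folds were lower than among those of GR. In fed muscle the highest was 5.95 (q-value 2.02e-06), 5.58 kb upstream of Prkag3, at a site shared by all 4 lists, followed by sites near Gapdh (5.34, in an intron of Iffo1), Gbe1 (5.32, in a coding exon), Hk1 (5.20) and Stbd1 (4.82). In starved muscle the highest LSD1 fold was 4.45, at the Pfkfb3 intron site that all 4 lists shared. The others, near Pygb (4.35), Phkg2 (4.32), Gapdh (4.28) and Gpi1 (4.25), were between 49 and 54 bp long except that of Gapdh.

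**Figure D4:**
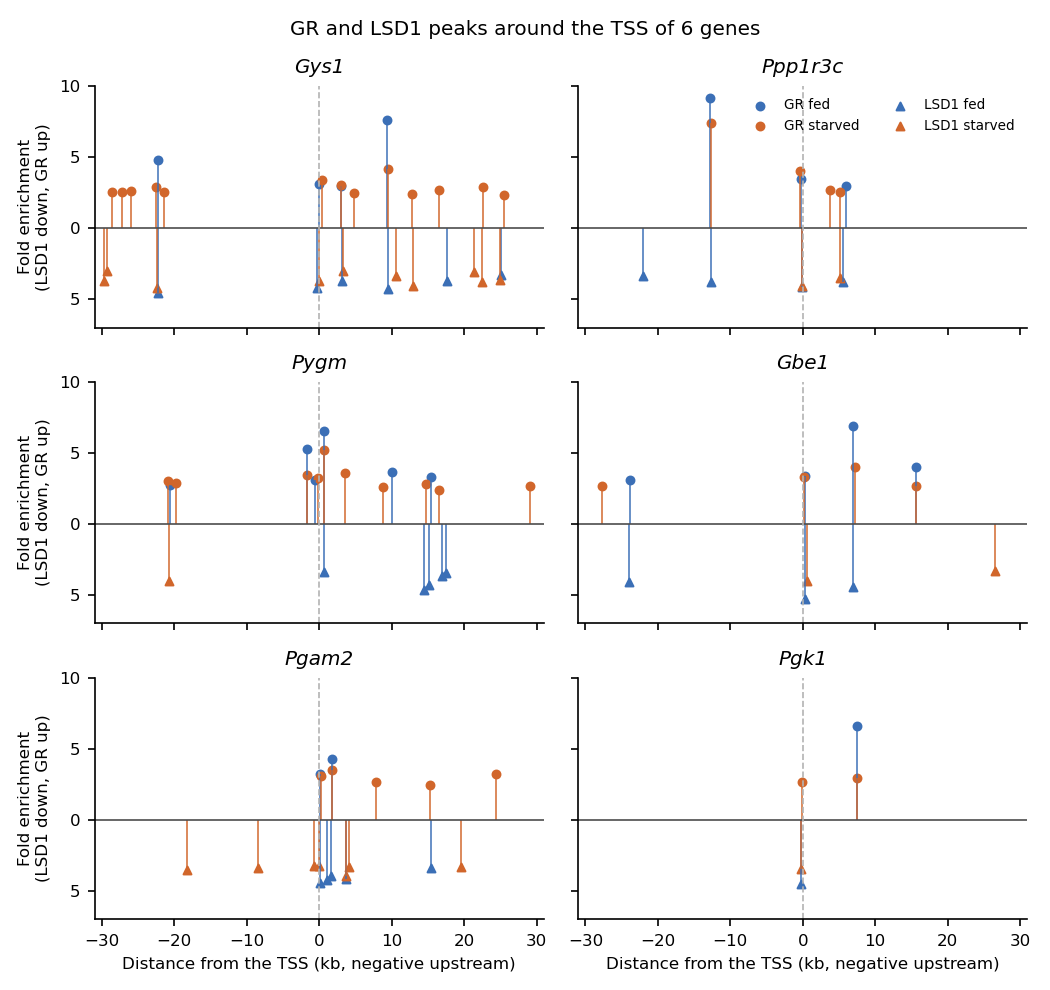
Position of GR peaks (circles, upward) and LSD1 peaks (triangles, downward) relative to the TSS of 6 genes with a single TSS, in kb with negative values upstream, against fold enrichment on both sides of 0, in fed (blue) and starved (orange) muscle. The tallest stems are the fed GR peaks 12.8 kb upstream of Ppp1r3c (9.13) and 9.39 kb downstream of Gys1 (7.64).

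Fed peaks near these genes recurred in the starved list about as often as those of all genes. Of 96 fed GR peaks within 30 kb, 71 (74%, interval 64 to 82.4%) were overlapped by a starved GR peak, against 69.7% of such peaks of all genes. In the other direction, 68 of 170 starved GR peaks (40%, interval 32.6 to 47.8%) were overlapped by a fed one, against 26.7%. Of 112 fed LSD1 peaks, 27 (24.1%, interval 16.5 to 33.1%) were overlapped by a starved LSD1 peak, against 25.7%, and 27 of 115 starved LSD1 peaks (23.5%, interval 16.1 to 32.3%) by a fed one, against 11.6%. A fed LSD1 peak overlapped 56 of the 96 fed GR peaks (58.3%, against 51.9%), and a starved LSD1 peak overlapped 39 of 170 starved GR peaks (22.9%, against 17.6%). Of 115 starved LSD1 peaks, 40 (34.8%) were overlapped by a starved GR peak, against 16.6% of such peaks of all genes. At the 72 kept pairs of GR peaks the median ratio of starved to fed fold was 0.892, against 0.888 at all genes, and the starved fold was higher in 17 and lower in 55 pairs, close to the 21.8% of pairs that were higher at all genes. For LSD1 the median ratio was 0.85 over 27 pairs, against 0.855.

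Single GR sites departed from that median in both directions. At the Pfkfb3 intron site printed above fed GR had a fold of 4.29 and starved GR 10.8, so the ratio was 2.51. The neighbouring Pfkfb3 site went from 4.55 to 6.24 (ratio 1.372). A Ugp2 site went from 3.342 to 4.635, with a similar ratio of 1.387. In the opposite direction, the Pgk1 intron site printed above had a fed fold of 6.59 and a starved one of 2.91, so the ratio was 0.441. Prkag3 (8.38 to 4.33), Gys1 (7.64 to 4.13) and Gbe1 (6.92 to 3.99) had ratios of 0.516, 0.541 and 0.577. The starved peak was longer than the fed one at the first Pfkfb3 site (849 bp against 206 bp) and shorter at the Pgk1 site (194 bp against 244 bp). A fold depends on the depth and background of its own library, which were not analysed here, and the part of these in the ratios was not tested.

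**Figure D5:**
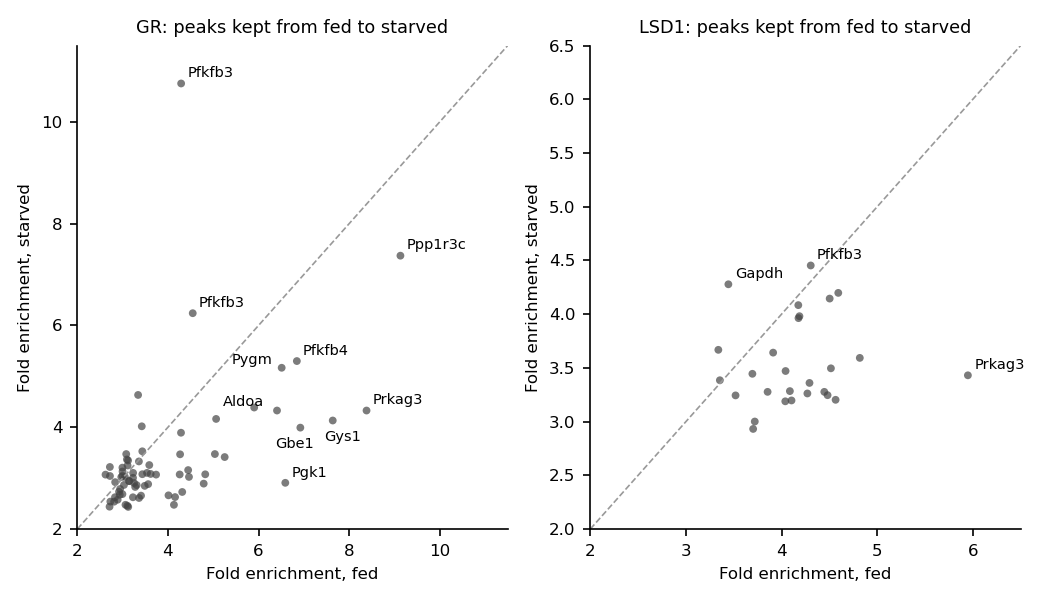
Fold enrichment in starved against fed muscle for GR peaks (left, 72 pairs) and LSD1 peaks (right, 27 pairs) near the 36 genes that overlapped between conditions, on linear axes, with a dashed line of equality. A pair of Pfkfb3 sites and an unlabelled Ugp2 site lie well above the line in the GR panel, and Pgk1, Prkag3, Gys1 and Gbe1 lie below it.

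GRE-like sequence was rare in these peaks. The motif searched was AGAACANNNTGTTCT with at most 1 mismatch over its fixed bases, which reads the same on both strands. It was found in 1 of 96 fed GR peaks near the 36 genes (1.04%, against 1.73% of fed GR peaks near any gene) and in none of the starved GR peaks or of the LSD1 peaks. That match lay 0.542 kb upstream of Pfkfb4 and is printed above. Promoter windows were also searched, 1 per gene, at the TSS of the NM_ transcript with the longest span. Such a match lies in the promoter windows of 0.667% of all genes. An exact half-site was found in 32 of 96 fed (33.3%, against 26.8%) and 54 of 170 starved GR peaks (31.8%, against 24.6%). The peaks near the 36 genes were also longer, with a median of 331.5 bp in fed and 404 bp in starved GR, against 290 and 333 bp for all genes, and the part of length in these shares was not tested.

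MEF2 matches were more frequent than GRE matches, but so they were in fed GR peaks near any gene (5.91% against 1.73%). The patterns searched differ in how many sequences they accept, so this order is not a trait of the 36 genes. The MEF2 search was added after other values of these data had been seen. A MEF2 match with no mismatch was present in 13 of 96 fed GR peaks (13.5%, against 5.91% of fed GR peaks near any gene) and 11 of 170 starved GR peaks (6.47%, against 3.51%). In LSD1 lists it was present in 9 of 112 fed (8.04%, against 3.01%) and 2 of 115 starved peaks (1.74%, against 1.1%). Like the GR peaks, LSD1 peaks near the 36 genes were longer than those of all genes. Their median was 227 bp in fed (against 205 bp) and 149 bp in starved muscle (against 111 bp). The part of length in the MEF2 shares was not tested. The fed GR matches lay near 10 genes, Aldoa, Fbp2, Gapdh, Gys1, Pfkfb3, Pfkm, Pgam2, Pkm, Ppp1r3a and Pygm. Gys1 held 2 matches 22.2 kb upstream and 1 in its intron 9.49 kb downstream, and Gapdh held 1 at 1.51 kb downstream and 2 in an intron of Iffo1. MEF2 matches are common in promoter sequence, with at least 1 in 14.7% of the promoter windows of all genes and in 4 of the 36. The NRF1 motif GCGCATGCGC, a palindrome, was found with no mismatch near 2 genes. One match lay at the TSS of Pgam1 in a starved GR peak, and the other lay 15.3 kb upstream of Tpi1, at the promoters of Cdca3 and Usp5, in the GR lists and the starved LSD1 list. NRF1 matches occurred in 1.6% of all promoter windows. A match of letters is not evidence that the factor bound.

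Of the histone marks, H3K9me2 in fed muscle had a promoter peak at 11 genes (30.6%, interval 16.3 to 48.1%), against 24.4% of all genes, a share near that background. The genes were Hk1, Gpi1, Pfkm, Pfkp, Aldoc, Eno1, Pkm, Gbe1, Phkb, Ugp2 and Pfkfb4, with folds between 2.93 at Gpi1 and 4.17 at Pfkp. Such a peak lay at 2 of the 14 muscle isoforms (14.3%, interval 1.78 to 42.8%) and at 4 of the 11 other isoforms (36.4%, interval 10.9 to 69.2%). Both intervals hold the 24.4% of all genes. In starved muscle H3K9me2 had a promoter peak at 1 gene, Pgk1 (fold 3.83, q-value 0.0519), against 0.19% of all genes, in a list of 6624 peaks. H3K9me1 had a promoter peak at Phkb in fed muscle (fold 3.42, q-value 0.0235), against 2.08% of all genes. In starved muscle it had one at Pgk1 (fold 5.63, q-value 2.75e-06) and at Phkg1 (fold 3.63, q-value 0.0266), against 3.2%. The starved H3K9me1 peak at Pgk1 covered 424 bp and overlapped the starved peaks of H3K9me2, GR and LSD1 there. Its fold for H3K9me1 was the highest of any promoter peak among the 36 genes.

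In gene bodies H3K9me2 had a peak at 24 genes in fed (65.4% of all genes) and 1 in starved muscle (5.3%), and H3K9me1 at 6 (18.7%) and 12 (33%). Within 30 kb of a TSS, H3K9me2 had a peak at 35 (95.1%) and 2 genes (7.45%), and H3K9me1 at 15 (33.6%) and 19 (61.6%). No gene had a promoter peak of H3K9me1 in both conditions (0.114% of all genes), with 1 in fed muscle alone (1.96%), 2 in starved muscle alone (3.09%) and 33 in neither (94.8%). For H3K9me2 the counts were 0 in both (0.0524%), 11 in fed alone (24.3%), 1 in starved alone (0.138%) and 24 in neither (75.5%). H3K9me1 peaks lay within 30 kb in both conditions at 8 genes (22.5%), and were more numerous in starved muscle at 13 (48%) and fewer at 8 (14%). H3K9me2 peaks lay there in both at 1 gene (7.2%), with more in starved muscle at 1 (0.4%) and fewer at 35 (94.4%). Nearly every gene thus had a fed H3K9me2 peak nearby, as all genes did. Of 112 fed LSD1 peaks near the 36 genes, 16 (14.3%) were overlapped by a fed H3K9me2 peak, against 18.8% of those of all genes.

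Base composition was measured in 1 promoter window per gene, at the TSS of the NM_ transcript with the longest span. These promoters did not share one type of base composition. Their median GC content was 51.4%, between 35.3% and 60.1%, and the median for all genes was 49.9%. The ratio of observed to expected CpG had a median of 0.445 (0.443 for all genes), and 7 of 36 promoters were at 0.6 or more (19.4%, against 30.4%). The muscle isoforms had a median CpG ratio of 0.301 and the other isoforms 0.504. Pgam2 stood at 0.105 and Pgam1 at 0.833. Among all genes, those with an LSD1 promoter peak had a median ratio of 0.634, and the 21 members with one had 0.447. For GR these medians were 0.629 and 0.511 (23 members). Promoter peaks were counted at every TSS, so the measured window need not be the one that held the peak. Members had more than 1 TSS at 11 of 36 genes (30.6%, against 17.1%), which gives more windows in which a peak can be counted, and a median span of 19.6 kb (16.7 kb for all genes).

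Other genes of the same pathways were counted for comparison, 31 in number, among them further hexokinases, liver isoforms and glycogen regulators. Of these, 9 had a GR promoter peak in fed and 10 in starved muscle, beside 15.1% and 26% of all genes, and 6 and 7 had an LSD1 promoter peak, beside 25.4% and 18%. Within 30 kb they had a mean of 1.48 GR peaks in fed and 2.68 in starved muscle, and 1.29 and 2.81 LSD1 peaks. The means of the 36 genes, 2.67, 4.72, 3.11 and 3.19, were above these in each list.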

How the data were processed

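Peak lists from skeletal muscle of fed and 24 h starved mice (GR, LSD1, H3K9me1, H3K9me2, 1 library per condition) were used as deposited. The authors mapped single-end reads to mm10, kept reads with 1 location, removed a blacklist made for a human build, and called broad peaks with MACS2 against input. The submitters' processing notes name bcl2fastq 2.20.0.422. The authors deposited, per peak, a fold enrichment (ratio), the −log10 p-value, the −log10 q-value and a score, the last of which was not used here. The methods state a false discovery rate of 0.01, but q-values in the lists reach between 0.0925 and 0.0998. The LSD1 starved list holds far more peaks than the study's text gives for it. No GR peak was under 117 bp (fed) or 110 bp (starved), whereas the other lists began at 49 to 55 bp. The input libraries were not analysed here, and the depth of each library is unknown.

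Peak midpoints were assigned in Python 3.11.15 (pandas 2.3.3, numpy 2.4.6) to 37867 NM_ transcripts of 21000 genes on chromosomes 1 to 19, X and Y of RefSeq GRCm38.p6. Peaks counted as overlapping from 1 bp on. Motifs were searched in whole peaks of GR and LSD1. Peak assignment and the search for an exact GRE were tested on simulated data. The searches for NRF1, MEF2 and a GRE with a mismatch were not tested in this way. Groups came from the labels. With 1 library per group no test was made. The members, lists of isoforms and roles, and motifs were chosen with earlier results of these data known. Values are given for each member with a GR or LSD1 promoter peak, the 5 nearby peaks of highest fold in each GR and LSD1 list, every H3K9 promoter peak, and GRE and NRF1 matches. Alternatives changed the threshold, the window, the TSSs, the list length and the mismatches.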

Additional observations from a re-analysis of the deposited data

Results flagged for a closer look

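Between fed and starved muscle, the number of the 36 genes with a promoter peak differed in opposite directions for GR and LSD1. It was higher by 5 genes for GR (14 in fed, 19 in starved muscle), and for LSD1 it differed by -8 genes (19 and 11). With 1 library per condition the difference was not tested, and the shares of all genes differed the same way, 15.1% and 26% for GR and 25.4% and 18% for LSD1. With lists of equal length the GR counts were 14 and 12 (15.1% and 13.7% of all genes), so that GR no longer went the opposite way.

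The histone marks also went in opposite directions, by 1 gene for H3K9me1 (1 in fed, 2 in starved muscle) and by -10 genes for H3K9me2 (11 and 1). That difference was not tested either. For both marks the library code changed with the condition, so condition and code cannot be told apart.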

How the results depend on the processing

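Thresholds altered the counts of genes most. With a q-value of 0.01 or less, promoter counts (with the share of all genes under the same setting, also given for the fold and the list length) were 12 for GR starved (12.7%), 10 for LSD1 fed (11.8%), 1 for LSD1 starved (3.39%), 0 and 1 for H3K9me1 fed and starved (0.714% and 1.41%), and 5 and 0 for H3K9me2 (6% and 0.0286%). Nearby counts were 14 for LSD1 starved (21.4%), 8 and 9 for H3K9me1 (15.3% and 35.5%) and 0 for H3K9me2 starved (1.28%). Gene body counts were 16 for GR starved (16.7%), 8 for LSD1 starved (9.6%), 3 and 4 for H3K9me1 (9.15% and 19.7%), and 11 and 0 for H3K9me2 (34.5% and 1.1%). GR in starved muscle alone was 5 (7.7%), LSD1 in both conditions 1 (1.29%) and in starved muscle alone 0 (2.1%), and GR with LSD1 was 7 in fed (3.5%) and 1 in starved muscle (1.38%). With a fold of at least 4, promoter counts were 1 and 1 for GR (0.919% and 0.386%), 8 and 1 for LSD1 (12.6% and 2.11%), 0 and 1 for H3K9me1 (0.652% and 1.26%), and 1 and 0 for H3K9me2 (1.87% and 0.0333%). Nearby counts were 19 and 10 for GR (11.8% and 6.01%), 14 for LSD1 starved (21.3%), 8 and 10 for H3K9me1 (15.8% and 38.1%), and 16 and 1 for H3K9me2 (38% and 2.12%). Gene body counts were 14 and 5 for GR (6.48% and 3.11%), 11 for LSD1 starved (10.6%), 3 and 6 for H3K9me1 (9.55% and 21%) and 8 for H3K9me2 fed (20.7%). GR was then in both conditions at 0 (0.224%), in fed alone at 1 (0.695%) and in starved alone at 1 (0.162%), LSD1 in both at 1 (0.819%) and in starved alone at 0 (1.3%), and GR with LSD1 at 1 in each condition (0.471% and 0.0524%). These thresholds keep fewer peaks, which is why the counts are lower.

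With lists of equal length, promoter counts were 12 for GR starved (13.7%), 6 for LSD1 starved (7.62%), 1 for H3K9me1 starved (1.14%) and 0 for H3K9me2 fed (1.11%), and nearby counts 23 for LSD1 starved (42.4%), 7 for H3K9me1 starved (30.7%) and 7 for H3K9me2 fed (18.7%). GR was in fed alone at 7 (7.66%) and in starved alone at 5 (6.24%), LSD1 in both at 5 (5.26%) and in starved alone at 1 (2.37%), and GR with LSD1 in starved muscle at 4 (3.3%). A promoter to 1 kb downstream gave 3 for H3K9me1 fed (3.35% of all genes) and 16 for GR in both conditions (15.9%). LSD1 was then in both at 14 (15.9%), and GR with LSD1 at 18 in fed (15%) and 14 in starved muscle (16.6%). Any base in the promoter gave 11 for GR with LSD1 in starved muscle (13.9%). With 1 TSS per gene H3K9me2 fed had 6 promoters (22.2%). Within 10 kb the counts were 11 for H3K9me1 starved (30.1%) and 1 for H3K9me2 starved (2.62%). No GRE without mismatch was found near any of the genes (0), and NRF1 with 1 mismatch was found near 4 genes in GR fed, 6 in GR starved, 1 in LSD1 fed and 5 in LSD1 starved. Of 200 values under alternatives, 106 stayed within 1.5 times the main count and 94 did not. No paired analysis was possible because each group has 1 library and no result comes from a test.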
